A study of Mus musculus with 62 samples.

Results

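Neuronal firing is set by ion channels in the membrane. Voltage-gated sodium channels carry the upstroke of the action potential, and their pore-forming alpha subunits sit with beta subunits that change gating and placement. Voltage-gated potassium (Kv) channels repolarize the membrane, Kv3 channels allow fast repeated firing, and Kv1 channels with their cytoplasmic beta subunits are held beside the nodes of myelinated axons and at terminals. HCN channels open on hyperpolarization and carry the pacemaker current. Messenger RNAs for 29 such genes were followed here, chosen by gene symbol from 23038 listed genes, and 29 of 29 were found. They were 4 sodium channel alpha genes (Scn1a, Scn2a1, Scn3a, Scn8a), 3 sodium channel beta genes (Scn2b, Scn3b, Scn4b), 6 Kv1 pore genes (Kcna1 to Kcna6), 3 Kv beta genes (Kcnab1 to Kcnab3), 10 other potassium channel genes (Kcnb2, Kcnc1, Kcnc2, Kcnc4, Kcnd2, Kcnd3, Kcnq3, Kcnq5, Kcnh1, Kcnh2) and 3 HCN genes (Hcn2, Hcn3, Hcn4). Scn2a1 is listed as Scn2a in RefSeq.

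The study deleted Nova1, the gene of a neuronal RNA-binding protein that regulates splicing, and 62 RNA sequencing libraries from mice on a BL6 background formed 15 groups. Mice whose inhibitory neurons lacked Nova1 were labelled cKO, and their controls were labelled cHet, so the control was not a wild type; the Cre driver is not stated in the labels used here. At postnatal day 21, substantia nigra, caudate putamen, periaqueductal gray and hypothalamus were taken (n = 4 libraries per genotype and region), as was pituitary (n = 3 per genotype). At P0, whole brain was used for translating ribosome affinity purification, TRAP, which isolates mRNA on tagged ribosomes (n = 6 per genotype). In culture, neurons of e13.5 ventral diencephalon and mesencephalon were given lentivirus at day 7 in vitro and lysed at day 14, with 4 libraries per group: GFP alone (labelled WT), GFP and Cre (labelled KO), or GFP, Cre and Impact. Impact is a regulator of translation that the KO cultures also expressed less, as given below. Nothing in the labels says which libraries shared an animal or culture, so a p-value measures only the spread between libraries.

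Depth ran from 15.4 to 24.3 M tags in the brain regions, 20.95 to 29.5 M in cultured neurons, 7.38 to 25.4 M in TRAP and 2.24 to 3.10 M in pituitary. Nova1 fell in the cKO libraries of substantia nigra (log2 difference -1.14), hypothalamus (-0.61), caudate putamen (-1.86) and TRAP (-3.03), and in KO neurons (-3.60). In periaqueductal gray the difference was -0.30 (adjusted p = 0.114) and in pituitary -0.85 (adjusted p = 0.761), neither past the threshold of 0.05. The deleted exons are not stated in the labels, and the counts are per gene. The 1 caudate putamen cKO library whose title names the periaqueductal gray held 192 CPM (tags of a gene per M tags of scaled library size) of the striatal dopamine receptor gene Drd1a, near the 186 to 207 CPM of the other 3, and was used as caudate putamen. The dopamine neuron gene Th was at 862 to 1163 CPM in all 8 substantia nigra libraries, and the growth hormone gene Gh at 56839 CPM or more in all 6 pituitary libraries. TRAP cKO 1 stood apart with 189 CPM of the inhibitory neuron gene Gad2, against 271 to 289 CPM in the other 5 cKO libraries.

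Several of these genes lie side by side, and 4 promoters are shown because their genes had the lowest adjusted p for the average genotype effect over the 4 brain regions. Scn2b (chromosome 9, 45117782 to 45130070) and Scn4b (chromosome 9, 45138395 to 45154152) are both on the plus strand, 8.3 kb apart with 0 protein-coding genes between them. Kcna5, Kcna1 and Kcna6 (chromosome 6, 126708329 to 126740674 for Kcna6) follow each other on the minus strand, and Hcn2 lies at 79716634 to 79736108 of chromosome 10, plus strand. Gene positions are from GENCODE on GRCm38. The windows are RefSeq promoters of GRCm38.p6, from 250 bases before to 50 after the start, written 5′ to 3′ along the gene: chr9:45138374-45138673 for Scn4b (plus strand), chr9:45117626-45117925 for Scn2b (plus strand), chr6:126740625-126740924 for Kcna6 (minus strand) and chr10:79716384-79716683 for Hcn2 (plus strand). Capitals mark matches on either strand to the GC box (GGGCGG), the CCAAT box, the TATA motif (TATAAA) or the E-box (CACGTG).
Scn4b: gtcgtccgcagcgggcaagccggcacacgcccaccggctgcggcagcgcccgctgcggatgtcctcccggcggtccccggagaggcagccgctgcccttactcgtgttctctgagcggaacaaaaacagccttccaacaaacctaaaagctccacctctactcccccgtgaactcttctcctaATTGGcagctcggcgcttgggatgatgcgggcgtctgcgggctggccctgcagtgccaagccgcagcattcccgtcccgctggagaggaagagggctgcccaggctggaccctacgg
Scn2b: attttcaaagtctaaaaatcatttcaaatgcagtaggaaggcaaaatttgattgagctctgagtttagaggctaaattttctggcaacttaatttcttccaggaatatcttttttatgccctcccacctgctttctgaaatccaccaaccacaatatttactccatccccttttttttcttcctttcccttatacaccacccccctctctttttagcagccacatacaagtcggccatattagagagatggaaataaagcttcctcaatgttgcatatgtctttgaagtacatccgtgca
Kcna6: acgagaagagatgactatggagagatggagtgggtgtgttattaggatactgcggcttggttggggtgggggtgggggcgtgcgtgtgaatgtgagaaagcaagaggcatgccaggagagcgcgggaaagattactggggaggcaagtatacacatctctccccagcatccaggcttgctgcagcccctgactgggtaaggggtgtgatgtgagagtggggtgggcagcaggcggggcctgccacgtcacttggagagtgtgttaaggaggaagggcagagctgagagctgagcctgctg
Hcn2: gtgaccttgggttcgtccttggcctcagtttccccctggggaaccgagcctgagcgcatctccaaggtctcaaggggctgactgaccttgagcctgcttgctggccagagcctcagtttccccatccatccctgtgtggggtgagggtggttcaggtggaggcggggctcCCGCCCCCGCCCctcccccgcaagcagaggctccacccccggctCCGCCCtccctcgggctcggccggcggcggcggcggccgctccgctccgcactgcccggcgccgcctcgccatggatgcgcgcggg
The Scn4b window has 66.3% G and C and 1 CCAAT match, while that of its neighbour Scn2b has 38.3% and no match to the 4 motifs. The Hcn2 window has 72.3% G and C and 3 GGGCGG matches, and the Kcna6 window has 58.3% and no match. Among all 32851 promoters the median was 52.7%, and GGGCGG was found in 35.7%, CCAAT in 37.4%, TATAAA in 13.6% and CACGTG in 7.15%. RefSeq windows matched 22 of the 29 genes (not Scn3a, Scn3b, Kcna1, Kcnab3, Kcnb2, Kcnq3 and Hcn3), with 32 windows in all. Of these, 13 held GGGCGG, 8 CCAAT, 2 TATAAA and 2 CACGTG. A match is only a run of letters and no factor's binding was measured.

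In control substantia nigra, Kcnab2, a Kv beta subunit gene, had the highest deposited level per length (102 ± 2.7 RPKM, tags per kb and M tags; SD, n = 4), followed by Hcn2 (65.7 ± 3.6) and Scn2b (42.3 ± 4.4). Kcna2, Kcna6 and Kcna1 stood close together at 23.2, 22.8 and 22.7 RPKM. The lowest were Kcnh1 (0.431 RPKM) and Kcna5 (0.309 RPKM). The order differed in caudate putamen, where Scn4b led with 240 RPKM and Kcnab1 followed with 172 RPKM. In pituitary the ERG-type potassium channel gene Kcnh2 (21.4 RPKM) and Kcna5 (12.3 RPKM) led. In P0 TRAP the beta gene Scn3b led with 42.6 RPKM, and in WT neurons Scn2a1 led with 45.9 RPKM and Scn3b followed with 31.2 RPKM. Scn4b was lowest in these last 2 groups, at 0.165 and 0.0741 RPKM. The last 2 groups are the youngest material of the series, and they also differ from the tissues in preparation.

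**Figure D1:**
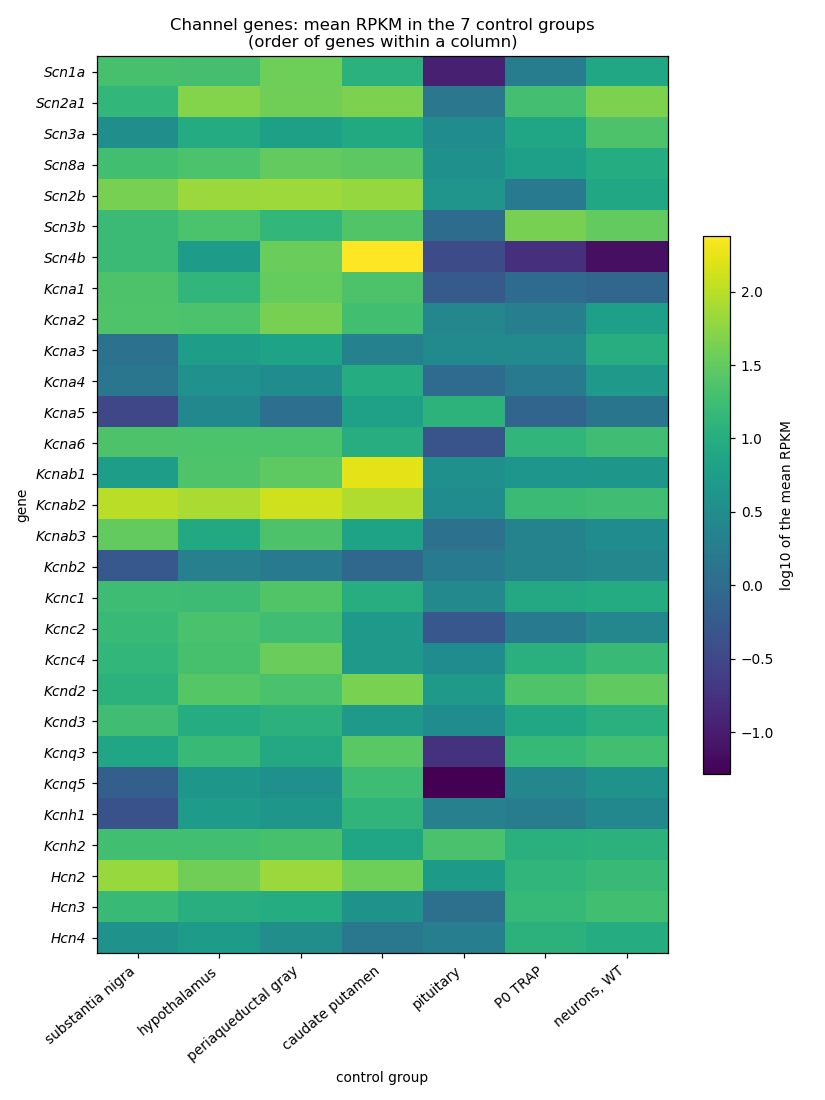
Mean deposited RPKM of the 29 channel genes (rows) in the 7 control groups (columns), as log10, with 3 to 6 libraries per group. Scn4b is the highest gene of the caudate putamen column (240 RPKM) and the lowest of the WT neuron column (0.0741 RPKM), and Kcnab2 is first in substantia nigra, hypothalamus and periaqueductal gray.

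Control regions were compared with one fit over the 16 cHet libraries, each region against the mean of the other 3 (edgeR quasi-likelihood test, p-values adjusted over all genes). In substantia nigra 25 of 29 genes differed, 9 higher and 16 lower, where 67.7% of all genes differed (31.8% higher, 35.9% lower). The count was 25 of 29 in hypothalamus (48.8% of all genes), 24 in periaqueductal gray (48% of all genes) and 28 in caudate putamen (64.4% of all genes). Substantia nigra had the highest mean of the 4 regions for 4 genes (Kcna6, Kcnab3, Kcnd3, Hcn3) and the lowest for 13. Periaqueductal gray was highest for 11, caudate putamen for 9 and hypothalamus for 5. For 9 genes no neighbouring regions in the order overlapped between libraries, for 13 genes 1 pair did and for 7 genes 2 pairs did. Counts of region order and overlap were not made over all genes, so they only describe these 29.

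Kcnab3, a Kv beta subunit gene, had the largest excess in substantia nigra (log2 difference 1.47, SE 0.09, adjusted p = 9.9e-13), with 88.9 ± 4.5 CPM against 65.4 ± 9.9 in periaqueductal gray, 24.2 ± 3.8 in hypothalamus and 20.7 ± 4.0 in caudate putamen; the libraries of the last 2 overlapped. Kcnd3, a Kv4 gene of the A-type current, was higher by 1.13 (SE 0.07, adjusted p = 4.8e-13) and Hcn3 by 1.03 (SE 0.06, adjusted p = 1.5e-12). The largest deficits in substantia nigra were Kcnh1, an EAG-type channel gene (-3.99, SE 0.10, adjusted p = 1.2e-19), Kcnq5, an M-current gene (-3.30, SE 0.09, adjusted p = 1.8e-18), and Kcna5 (-3.16, SE 0.18, adjusted p = 3e-13). The means of these 3 in substantia nigra were 3.06, 4.60 and 0.915 CPM, against 96.9, 126 and 20.2 CPM in caudate putamen.

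Caudate putamen was set apart by Scn4b, whose protein is tied to resurgent sodium current. Scn4b averaged 1050 CPM there, 146 in periaqueductal gray, 67.8 in substantia nigra and 22.3 in hypothalamus, a ratio of 47.0 between the ends, and no neighbouring regions overlapped. Its difference was 4.12 in caudate putamen (SE 0.09, adjusted p = 1.4e-21) and -3.29 in hypothalamus (SE 0.13, adjusted p = 8.6e-16). Kcnab1 (3.48, SE 0.06, adjusted p = 3.2e-23) and Kcnq5 (3.05, SE 0.06, adjusted p = 5.2e-22) were the next 2 in caudate putamen, and Kcnc4 (-2.07), Kcnc2 (-1.79) and Hcn3 (-1.52) were lowest against the rest there. Periaqueductal gray had its largest excess in Kcnc4 (1.6), Kcna3 (1.49) and Scn1a (1.16), and its largest deficits were Kcnq3 (-0.79), Kcna5 (-0.61) and Scn3b (-0.57). In hypothalamus the largest excess was in Kcna3 (1.14), Kcnb2 (1.08) and Kcna5 (0.99), and beside Scn4b the largest deficits were Kcnab3 (-1.03) and Kcna1 (-0.97). These tissue pieces hold different mixtures of cells, and in bulk RNA fewer cells of a type and less RNA per cell cannot be told apart.

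**Figure D2:**
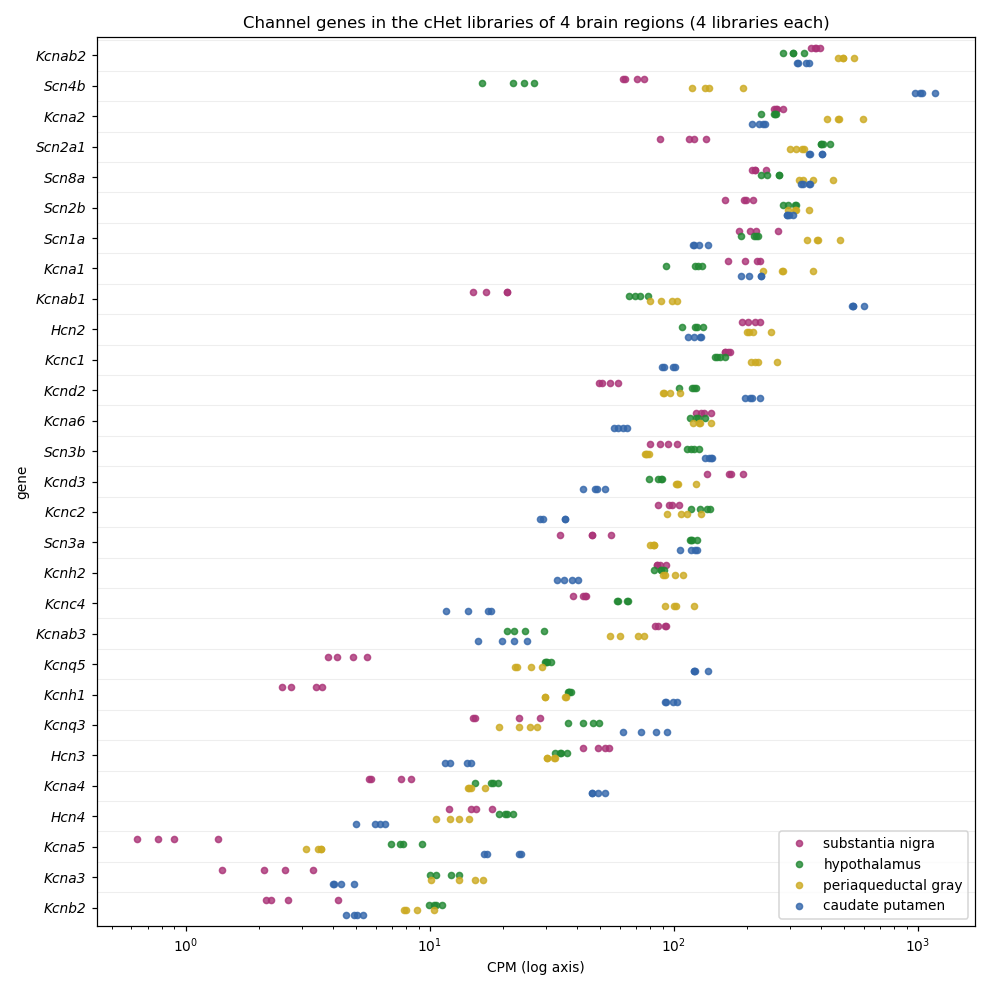
CPM (log axis) of each channel gene in the 16 control (cHet) libraries, with 1 point per library and 1 row of points per region, genes ordered by their mean. Scn4b spans the widest range, from 22.3 CPM on average in hypothalamus to 1050 in caudate putamen, whereas Scn2b means lie between 191 and 320 CPM.

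Loss of Nova1 was next compared in substantia nigra, cKO against cHet. Of 29 genes tested, 9 passed adjusted p of 0.05, 8 lower and 1 higher in cKO, where 9.81% of all genes passed (5.46% lower, 4.35% higher). The genes that fell were Scn4b, Hcn2, Kcna6, Kcnab2, Scn8a, Kcnc1, Kcna2 and Hcn3, and Kcnd2 rose. The median log2 difference was -0.15 over the 29 genes and 0.00 over all genes. All values below are log2 differences with SE from edgeR's quasi-likelihood test, adjusted over all genes.

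Scn4b, the beta subunit gene, gave the largest difference of those that passed. Its level was 63.8, 63.5, 71.0 and 77.4 CPM in cHet 1 to 4 and 29.4, 37.4, 37.3 and 36.0 CPM in cKO 1 to 4. No cKO library reached the lowest cHet library, and cKO 1 lay below the other 3 cKO libraries. The log2 difference was -0.98 (SE 0.09, adjusted p = 0.000178). Scn8a (chromosome 15, 100869858 to 101045938), the sodium channel alpha gene of mature nodes and axon initial segments, had 218, 221, 239 and 213 CPM in cHet and 181, 189, 190 and 184 CPM in cKO. The groups did not overlap and the difference was -0.26 (SE 0.06, adjusted p = 0.0145). The other sodium channel genes did not pass. Scn2b was at -0.26 (adjusted p = 0.0765). Scn3a, an alpha gene whose own level is higher before birth than later, was at 0.37 (adjusted p = 0.0964). Scn1a, Scn2a1 and Scn3b lay between -0.17 and 0.17.

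Among Kv1 genes and their beta subunits, Kcna6, a Kv1 pore gene, had 131.5, 126.8, 142.7 and 135.8 CPM in cHet against 75.3, 85.5, 95.7 and 96.7 CPM in cKO. The groups were separate, with a difference of -0.60 (SE 0.08, adjusted p = 0.000693). Kcnab2 (chromosome 4, 152390742 to 152477871), which helps carry Kv1 channels to axons, had 388.5, 390.7, 397.1 and 373.4 CPM in cHet and 286.4, 301.2, 326.1 and 318.9 CPM in cKO. All 4 cKO values lay below all cHet values (-0.33, SE 0.06, adjusted p = 0.00477). Kcna2 (chromosome 3, 107101146 to 107115005), a Kv1 pore gene of the zones next to nodes, had 266.7, 272.9, 280.1 and 262.6 CPM in cHet and 209.7, 235.1, 230.9 and 236.8 CPM in cKO. It also fell without overlap (-0.25, SE 0.06, adjusted p = 0.0205), but did not pass without cKO 1 (adjusted p = 0.0631), cHet 1 (0.0559) or cHet 2 (0.0541). Kcna1, which shares channels with Kcna2, went the other way without passing (205 ± 27 to 236 ± 21 CPM, adjusted p = 0.179). Kcna3, Kcna4 and Kcna5 were at or under 8.42 CPM in every control library and did not pass, nor did Kcnab1 (-0.16) and Kcnab3 (-0.23, adjusted p = 0.0854).

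Of the other potassium channel genes, Kcnc1 (chromosome 7, 46396497 to 46438704), a Kv3 gene of fast-spiking cells, had 165.1, 166.2, 167.8 and 173.5 CPM in cHet and 124.2, 138.8, 143.8 and 146.7 CPM in cKO. The groups were separate (-0.28, SE 0.06, adjusted p = 0.0153). Kcnd2 (chromosome 6, 21215503 to 21729805), a Kv4 gene of the A-type current, was the 1 gene that rose, with 55.7, 52.0, 59.4 and 50.7 CPM in cHet and 64.2, 64.0, 62.5 and 66.5 CPM in cKO. Its groups did not overlap (0.24, SE 0.07, adjusted p = 0.0419), but the call held in only 4 of 13 alternative analyses, and leaving out any library but cHet 3 ended it (highest adjusted p 0.121, without cHet 2). Kcnh1 had the second largest estimate of the 29 genes at -0.68 (SE 0.22, adjusted p = 0.0718), from low levels of 3.10 ± 0.53 CPM in cHet and 1.95 ± 0.40 in cKO. The 7 remaining potassium genes of this class lay between -0.13 and 0.32 and did not pass.

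All 3 HCN genes had negative estimates in substantia nigra and 2 passed. Hcn2 had 203.5, 194.9, 226.7 and 220.7 CPM in cHet and 139.7, 150.9, 155.8 and 142.9 CPM in cKO, with no overlap (-0.52, SE 0.07, adjusted p = 0.000588). Hcn3 (chromosome 3, 89146074 to 89160196) had 52.9, 55.7, 49.1 and 43.6 CPM in cHet and 36.0, 39.99, 41.4 and 43.8 CPM in cKO. Here the highest cKO library was just above the lowest cHet library (-0.32, SE 0.09, adjusted p = 0.0326). The Hcn3 call was lost without cKO 1, cKO 2, cKO 3, cHet 1 or cHet 2 (highest adjusted p 0.105, without cHet 2). Hcn4 went from 15.3 ± 2.4 to 12.7 ± 2.0 CPM and did not pass (adjusted p = 0.224).

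**Figure D3:**
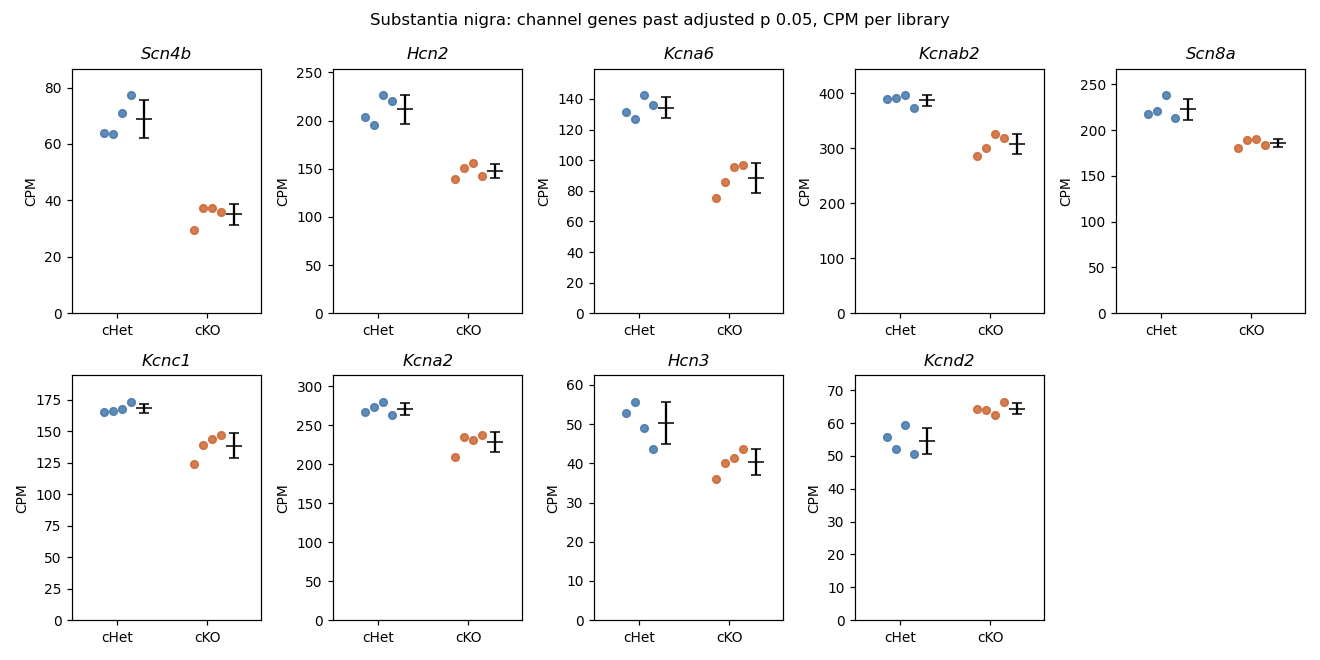
CPM (axis from 0) of the 9 channel genes that passed adjusted p of 0.05 in substantia nigra, with 1 point per library (libraries 1 to 4 from left to right) and mean ± SD beside them, n = 4 per genotype. The cHet and cKO points are apart in 8 panels, and in Hcn3 the cKO 4 library (43.8 CPM) lies just above cHet 4 (43.6 CPM).

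Cell markers moved in the same comparison. An inhibitory neuron list held 8 genes of inhibitory or fast-spiking neurons, not all of them specific to such cells. Of these 4 fell (Pvalb, Slc32a1, Spp1, Syt2), and all 8 summed to 1887 to 2079 CPM in cKO against 2080 to 2249 in cHet. Gad1, Gad2 and Slc32a1, genes of GABA synthesis and transport, made up most of that sum, and their own sums overlapped (1244 to 1352 against 1261 to 1385 CPM). Within these, Slc32a1 fell from 160 ± 1.7 to 134 ± 12 CPM (-0.26, adjusted p = 0.0273). The other 5 (Pvalb, Syt2, Vamp1, Nefh, Spp1) did not overlap (643 to 769 against 811 to 929 CPM), a split made after the values were seen. Pvalb, a calcium buffer of fast-spiking cells, went from 174 ± 23 to 125 ± 18 CPM (-0.48, SE 0.10, adjusted p = 0.0131). Among 8 endothelial markers 4 fell (135 to 156 against 167 to 194 CPM), and among 10 oligodendrocyte markers 4 fell, with overlapping sums (43975 to 50868 against 44608 to 61000 CPM). Of 9 pan-neuronal markers 2 fell (3595 to 4318 against 3936 to 4321 CPM). The 8 dopamine neuron markers gave 0 calls and overlapping sums (4440 to 6060 against 4688 to 5842 CPM). The 3 tested glutamatergic and 8 microglial markers gave 0 calls as well, with overlapping sums. Of 6 markers of neighbouring nuclei 1 rose, Calb2, and the sums did not overlap (328 to 357 against 227 to 287 CPM). Of 8 striatal projection neuron markers 2 rose (213 to 220 against 183 to 209 CPM) and of 8 astrocyte markers 2 rose with overlapping sums (7097 to 8485 against 7466 to 8133 CPM). No defining marker of these lists was at 0. Their part in the channel gene differences was not tested.

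In hypothalamus 9 of 29 genes passed, 7 lower and 2 higher, where 12% of all genes passed (6.42% lower, 5.57% higher), and the median of the 29 was -0.10 beside 0.00 over all genes. Kcna6 had 125.9, 119.8, 136.3 and 126.8 CPM in cHet and 96.2, 97.1, 102.1 and 98.8 CPM in cKO, without overlap (-0.37, SE 0.05, adjusted p = 0.000359). Scn2b, a beta subunit gene, had 299.7, 287.2, 318.9 and 320.1 CPM in cHet and 224.7, 243.2, 247.3 and 248.1 CPM in cKO, also without overlap (-0.35, SE 0.05, adjusted p = 0.000427). Kcna5, a Kv1 gene best known from heart and vessels, rose from 7.68, 7.98, 7.06 and 9.45 CPM in cHet to 10.9, 13.9, 13.2 and 13.3 CPM in cKO. That was the largest difference of the 9 (0.67, SE 0.12, adjusted p = 0.00192), and the groups were apart.

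Kcna2 in hypothalamus had 262.0, 233.3, 266.6 and 263.7 CPM in cHet and 211.7, 221.5, 213.5 and 211.7 CPM in cKO, and fell without overlap (-0.26, SE 0.05, adjusted p = 0.00366). Hcn2 had 123.9, 111.3, 133.0 and 126.1 CPM in cHet and 106.8, 107.3, 96.9 and 93.6 CPM in cKO, also separate (-0.29, SE 0.06, adjusted p = 0.00637). Scn3a rose from 119.4, 127.2, 117.8 and 120.3 CPM in cHet to 143.2, 151.5, 133.6 and 140.1 CPM in cKO, again without overlap (0.23, SE 0.05, adjusted p = 0.00856). The other 3 calls were each lost without at least 1 library. Scn4b fell by 0.54 (adjusted p = 0.0153) although the lowest cHet library (16.7 CPM) was below the highest cKO library (18.8 CPM), and Kcnc1 fell by 0.19 (adjusted p = 0.016) and Hcn3 by 0.30 (adjusted p = 0.0429). Scn4b did not pass without cHet 1 or cHet 3 (highest adjusted p 0.0606) and Kcnc1 did not without cHet 4 (0.0608). Hcn3 was lost without any 1 of 7 libraries, cKO 4 being the exception (highest adjusted p 0.147, without cKO 1). Of 10 oligodendrocyte markers 6 fell here (12561 to 16527 against 15410 to 18055 CPM) and of 8 endothelial markers 5 fell (100 to 123 against 132 to 152 CPM). Of the 8 genes of the inhibitory neuron list 3 fell (1265 to 1327 against 1278 to 1355 CPM). Of 8 astrocyte markers 3 fell (Aldoc, Aqp4, Gfap) and 2 rose (Agt, Slc1a3), with overlapping sums (4575 to 4759 against 4546 to 4869 CPM). Their part was not tested.

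In periaqueductal gray 10 of 29 genes passed, 8 lower and 2 higher, where 9.73% of all genes passed (5.4% lower, 4.33% higher), and the median was -0.10 beside 0.00 over all genes. Hcn2 had 200.7, 213.4, 248.1 and 204.8 CPM in cHet and 164.6, 165.9, 147.1 and 145.3 CPM in cKO, without overlap (-0.48, SE 0.07, adjusted p = 0.00116). Scn3a had 80.2, 84.1, 81.4 and 82.9 CPM in cHet and 108, 101, 115 and 104 CPM in cKO, and rose without overlap (0.38, SE 0.06, adjusted p = 0.00159). Scn4b had 120, 137, 191 and 140 CPM in cHet and 98.3, 98.9, 101.7 and 85.4 CPM in cKO (-0.61, SE 0.11, adjusted p = 0.00217). All 4 cKO libraries lay under the lowest control. Kcna6 had 121.0, 128.8, 140.5 and 128.9 CPM in cHet and 91.5, 92.3, 102.1 and 101.9 CPM in cKO (-0.42, SE 0.07, adjusted p = 0.00133). Scn2b had 320.0, 298.5, 353.4 and 313.5 CPM in cHet and 237.6, 245.4, 257.2 and 258.4 CPM in cKO (-0.36, SE 0.06, adjusted p = 0.00175). Hcn3 had 32.9, 32.7, 29.8 and 30.5 CPM in cHet and 18.3, 23.8, 22.4 and 28.3 CPM in cKO (-0.44, SE 0.11, adjusted p = 0.0165). The groups of these 3 genes did not overlap.

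The other 4 calls in periaqueductal gray were Kcnq3 (0.44), an M-current gene, Kcnab2 (-0.22), Kcnc1 (-0.24) and Kcna2 (-0.27), with adjusted p from 0.0181 to 0.042. The groups overlapped for Kcnq3 and Kcna2. Each of these was lost without at least 1 library. The libraries were cKO 1, cHet 2 or cHet 4 for Kcnq3 (highest adjusted p 0.0634), cKO 2 or cKO 3 for Kcnab2 (0.0591), and any of 6 libraries for Kcnc1 (0.0779) and for Kcna2 (0.103). Hcn3 was lost without cHet 2 (0.0514). Nova1 itself did not pass in this region. Of the 8 genes of the inhibitory neuron list 3 fell (Nefh, Pvalb, Syt2), with sums of 1900 to 2071 against 1888 to 2260 CPM. Gad1 (0.21, adjusted p = 0.141) and Gad2 (0.21, adjusted p = 0.0531) had positive estimates and did not pass. As in substantia nigra, Gad1, Gad2 and Slc32a1 overlapped (872 to 1153 against 821 to 957 CPM). The other 5 did not (918 to 1028 against 1067 to 1352 CPM), while in hypothalamus and caudate putamen these 5 overlapped. Of 10 oligodendrocyte markers 4 fell (22072 to 27603 against 24666 to 29918 CPM) and of 8 endothelial markers 2 fell (94.8 to 125 against 128 to 162 CPM). Of 9 pan-neuronal markers 2 fell and 1 rose, with sums of 4857 to 5066 against 5246 to 5621 CPM. Among the markers of neighbouring nuclei Calb2 rose (0.33). Tph2, of the same list, varied widely between libraries, from 42.0 to 294 CPM in cKO and 113 to 280 CPM in cHet. Their part was not tested.

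In caudate putamen 6 of 29 genes passed, 3 lower and 3 higher, where 10.4% of all genes passed (5.06% lower, 5.32% higher), and the median was -0.09 beside 0.00 over all genes. Scn2b had 282.6, 281.7, 299.7 and 286.7 CPM in cHet and 186.9, 184.6, 216.1 and 215.0 CPM in cKO, without overlap (-0.52, SE 0.06, adjusted p = 0.000164). Kcna4, a Kv1 gene of the A-type current, had 47.4, 45.0, 50.8 and 44.8 CPM in cHet and 31.5, 36.3, 38.7 and 33.7 CPM in cKO, again without overlap (-0.42, SE 0.08, adjusted p = 0.00327). Kcnab3 had 21.6, 19.2, 15.4 and 24.3 CPM in cHet and 25.4, 26.6, 28.6 and 26.6 CPM in cKO (0.41, SE 0.11, adjusted p = 0.0269). Every cKO library was above every control library.

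Kcna1 in caudate putamen rose from 196.5, 183.4, 222.1 and 220.6 CPM in cHet to 271.0, 269.2, 248.9 and 220.3 CPM in cKO, with cKO 4 inside the control range (0.30, SE 0.07, adjusted p = 0.0189). Kcna5 rose from 16.7, 22.9, 16.3 and 22.4 CPM to 24.9, 31.0, 24.2 and 24.8 CPM without overlap (0.43, SE 0.12, adjusted p = 0.0316). Kcna6 fell from 60.1, 55.6, 57.6 and 62.4 CPM to 37.0, 43.8, 53.8 and 52.9 CPM without overlap (-0.33, SE 0.10, adjusted p = 0.0388). Scn4b, the highest of the 29 per length in this region, went from 1020 ± 89 to 897 ± 49 CPM and did not pass (-0.19, adjusted p = 0.0616). Scn2b and Kcna4 passed in all 13 alternative analyses. Kcna1 was lost without cHet 1, cHet 2 or cKO 2, Kcna5 without cHet 1, cHet 3 or cKO 2, and Kcnab3 without cHet 2, cHet 3, cKO 2 or cKO 3. Kcna6 was lost without any of 6 libraries, cKO 3 and cKO 4 being the exceptions. The count was 3 without cHet 1, cHet 2 or cHet 3 and 2 without cKO 2. Without cKO 1, the library with conflicting labels, 5 of the 6 calls held, Kcna6 was lost (adjusted p = 0.0845) and Kcnh1 was gained (0.0436). The inhibitory neuron list gave 0 calls of 8 here, with sums of 1546 to 1637 against 1526 to 1602 CPM, while 3 of 10 oligodendrocyte and 1 of 8 endothelial markers fell. Their part was not tested.

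Across the 4 regions 16 of the 29 genes passed in at least 1, where 25.1% of the 14227 genes tested in all 4 did. None both rose and fell, which only 0.0773% of all genes did. Kcna6 fell in all 4, beside 1.27% of all genes. Scn2b, Scn4b, Kcna2, Kcnc1, Hcn2 and Hcn3 fell in 3, so that 7 fell in at least 3, beside 3.21% of all genes. Kcnab2 fell in 2, and Scn8a and Kcna4 in 1. Scn3a and Kcna5 rose in 2 (4.91% of all genes rose in at least 2), and Kcna1, Kcnab3, Kcnd2 and Kcnq3 in 1. Estimates were negative in all 4 regions for 12 genes and positive in all 4 for 3, beside 25.3% and 24.8% of all genes.

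A fit over the 32 brain libraries gave the average genotype effect, which passed for 16 of 29 genes, 12 lower and 4 higher, where 39% of all genes passed (19.6% lower, 19.4% higher). The largest were Scn4b (-0.58, SE 0.06, adjusted p = 3.16e-09), Kcna5 (0.47, SE 0.10, adjusted p = 0.000179) and Kcna6 (-0.43, SE 0.04, adjusted p = 4.84e-10). Scn2b (-0.37, adjusted p = 5.77e-10) and Hcn2 (-0.37, adjusted p = 4.7e-10) followed. Kcnh1 (-0.30, adjusted p = 1.83e-05), Kcna3 (-0.27, adjusted p = 0.0141) and Kcnq5 (0.20, adjusted p = 0.00315) passed only on average and in no region alone. The fit treats the 32 libraries as independent, and the labels do not say whether the 4 regions came from the same animals. Nova1 was lowest of the cKO libraries in cKO 4 of each region. It was at 26.4 CPM there in substantia nigra, 50.1 in hypothalamus, 108 in periaqueductal gray and 8.94 in caudate putamen. Same-numbered libraries of different groups had a median correlation of 0.105 around their group means, and differently numbered ones -0.057. If same-numbered libraries shared an animal, these p-values could be too small, which was not tested.

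The interaction of genotype with region passed for 1 gene of 29, Kcnab3 (adjusted p = 0.0413), where 0.318% of all genes passed. Its log2 difference was 0.41 in caudate putamen, -0.23 in substantia nigra, -0.24 in hypothalamus and -0.30 in periaqueductal gray. This call held in 15 of 37 alternative analyses (adjusted p 0.00284 to 0.147). The smallest p after it was that of Scn4b (adjusted p = 0.0683), with -0.98 in substantia nigra and -0.19 in caudate putamen; it passed in 5 of 37 alternative analyses (lowest adjusted p 0.0236). For the other genes a call in one region and none in another was not shown to be a difference between regions.

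**Figure D4:**
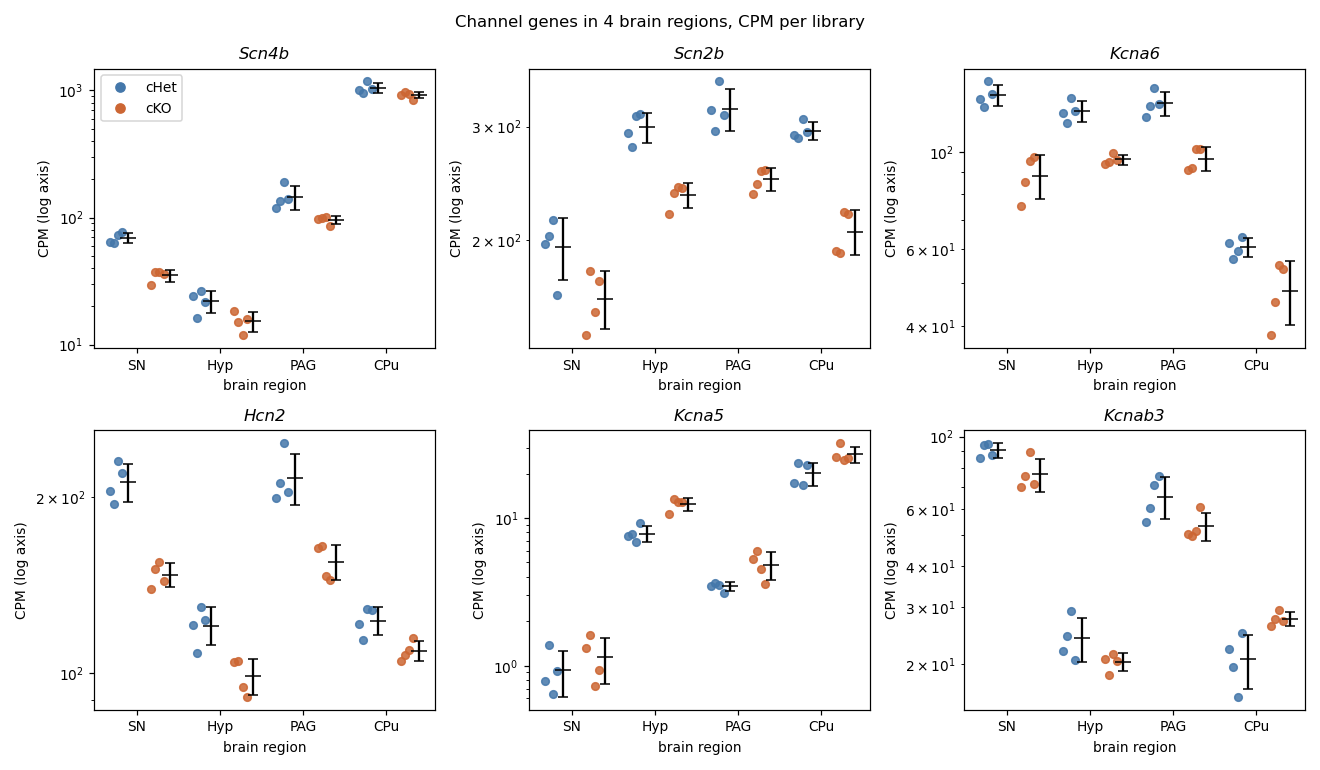
CPM (log axis, scaled over the 32 brain libraries) of 6 channel genes by region (SN substantia nigra, Hyp hypothalamus, PAG periaqueductal gray, CPu caudate putamen) and genotype, with 1 point per library and mean ± SD, n = 4. Kcna6 is lower in cKO in each region, Kcna5 is higher in cKO in hypothalamus and caudate putamen, and Kcnab3 is higher in cKO in caudate putamen.

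Other channel genes and channel partners were followed as 7 lists of 116 genes, all found but Sptbn4. In substantia nigra 7 of the 99 tested rose and 9 fell, beside 4.35% and 5.46% of all genes, with a median of -0.05. Among the other Kv alpha genes, Kcng4, a modifier of Kv2 channels, fell (49.8 CPM in cHet, 27.2 in cKO; -0.87, adjusted p = 0.00231) and Kcns2 rose (0.67). Kcng4 fell in hypothalamus (-0.85) and periaqueductal gray (-0.75) too. Among 15 auxiliary genes of substantia nigra, Pex5l, an HCN partner that controls the surface level of these channels, fell (-0.45, adjusted p = 0.00898), Kcnip3 fell (-0.25) and Kcnip1, a Kv4 partner, rose (0.32). Pex5l fell in periaqueductal gray as well (-0.29, adjusted p = 0.0204), where Hcn2 and Hcn3 also fell.

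Of 11 genes of the axon initial segment and node, Cntn2, the adhesion molecule that holds Kv1 channels next to nodes, was the 1 that passed in substantia nigra, with 314 CPM in cHet and 186 CPM in cKO (-0.75, SE 0.12, adjusted p = 0.00191). It fell in hypothalamus (-0.44), periaqueductal gray (-0.51) and caudate putamen (-0.53) too. Its partner Cntnap2 passed in periaqueductal gray, where it rose (0.20). Of 21 genes listed by a calcium channel symbol (Cacna, Cacnb or Cacng), 3 rose in substantia nigra (Cacng5, Cacng3, Cacnb3) and 1 fell (Cacna1i, -0.68). A Cacng symbol alone does not make a gene part of a calcium channel. In caudate putamen 4 of the list fell, Cacna1i, Cacna2d1, Cacna2d2 and Cacna2d3 (-0.27 to -0.20). Of 8 calcium- or sodium-activated potassium genes 1 fell in substantia nigra (Kcnn1, -0.45), and of 20 inward rectifier and leak genes 2 fell (Kcnk13 -0.76, Kcnj11 -0.41) and 1 rose (Kcnj5, 0.65). Over the 7 lists, 5 of 105 rose and 5 fell in hypothalamus, 6 of 104 rose and 8 fell in periaqueductal gray, and 3 of 106 rose and 11 fell in caudate putamen, shares to be read beside the 12%, 9.73% and 10.4% of all genes.

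In pituitary 22 of the 29 genes were tested, since Scn1a, Scn4b, Kcna6, Kcnab3, Kcnc2, Kcnq3 and Kcnq5 had too few tags, and edgeR called 0 (0.00815% of all genes passed). DESeq2 also called 0, and 2 had an unadjusted p under 0.05. Kcnd2 had 18.9, 27.2 and 28.8 CPM in cHet and 12.1, 16.4 and 15.3 CPM in cKO (-0.77, SE 0.27, adjusted p = 0.586). Scn2b had 22.9, 22.3 and 19.6 CPM in cHet and 10.4, 12.5 and 16.8 CPM in cKO (-0.68, SE 0.28, adjusted p = 0.675). In both the cKO libraries lay below the cHet libraries, but neither passed. These libraries were the shallowest, and the SE of the 22 genes ran from 0.17 to 0.55.

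In P0 TRAP 28 of the 29 genes were tested and Scn4b was not, with at most 1.47 CPM in any library. edgeR called 0 of 28 (0.0307% of all genes passed), DESeq2 0, and 4 had an unadjusted p under 0.05 (Kcnab1, Hcn3, Scn3a, Scn3b). Kcnab1 ran from 14.7 to 19.4 CPM in cKO (mean 16.7 ± 2.1) and from 12.4 to 14.3 CPM in cHet (mean 13.3 ± 0.71), a difference of 0.33 (SE 0.09, adjusted p = 0.501). The groups did not overlap. The differences of the 28 genes ran from -0.20 to 0.33 with SE of 0.05 to 0.21. Nova1 fell by 3.03 in the same libraries.

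In cultured neurons edgeR called 0 of 29 genes for KO against WT (0.722% of all genes passed, 0.513% lower), 0 for KO with Impact against WT (0.378%, 0.256% lower) and 0 for KO with Impact against KO (0.00674%). DESeq2 called 1, 0 and 0, and 2, 3 and 0 had an unadjusted p under 0.05. The first 2 comparisons share the WT libraries. Same-numbered cultures deviated together, and with the replicate number as a block 2, 2 and 0 passed, where 6.35%, 3.39% and 0.182% of all genes did, so that the first 2 counts were near those shares. Impact itself went from 319 CPM in WT to 189 in KO (-0.75, adjusted p = 0.00038) and to 1864 in KO with Impact.

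Scn3b, the beta subunit gene among the highest in these cultures, had 160.8, 166.9, 176.1 and 183.8 CPM in WT and 189.9, 187.1, 205.9 and 213.1 CPM in KO. KO with Impact had 182.6, 184.8, 212.2 and 213.8 CPM. KO lay above all WT libraries, and KO with Impact overlapped WT. The difference was 0.21 for each (KO adjusted p = 0.154; with Impact 0.264) and passed with the block (adjusted p = 0.000145 and 0.000294). Scn1a in KO (-0.17, adjusted p = 0.204, with the block 0.0334) and Scn3a in KO with Impact (-0.12, adjusted p = 0.394, with the block 0.0495) passed only with the block as well. Hcn2, Hcn3 and Hcn4 differed by -0.02 to 0.06 in both comparisons with WT. Scn4b was at 0.73 CPM or less in the WT and KO libraries, and its estimate of 0.68 (SE 0.38) did not pass.

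**Figure D5:**
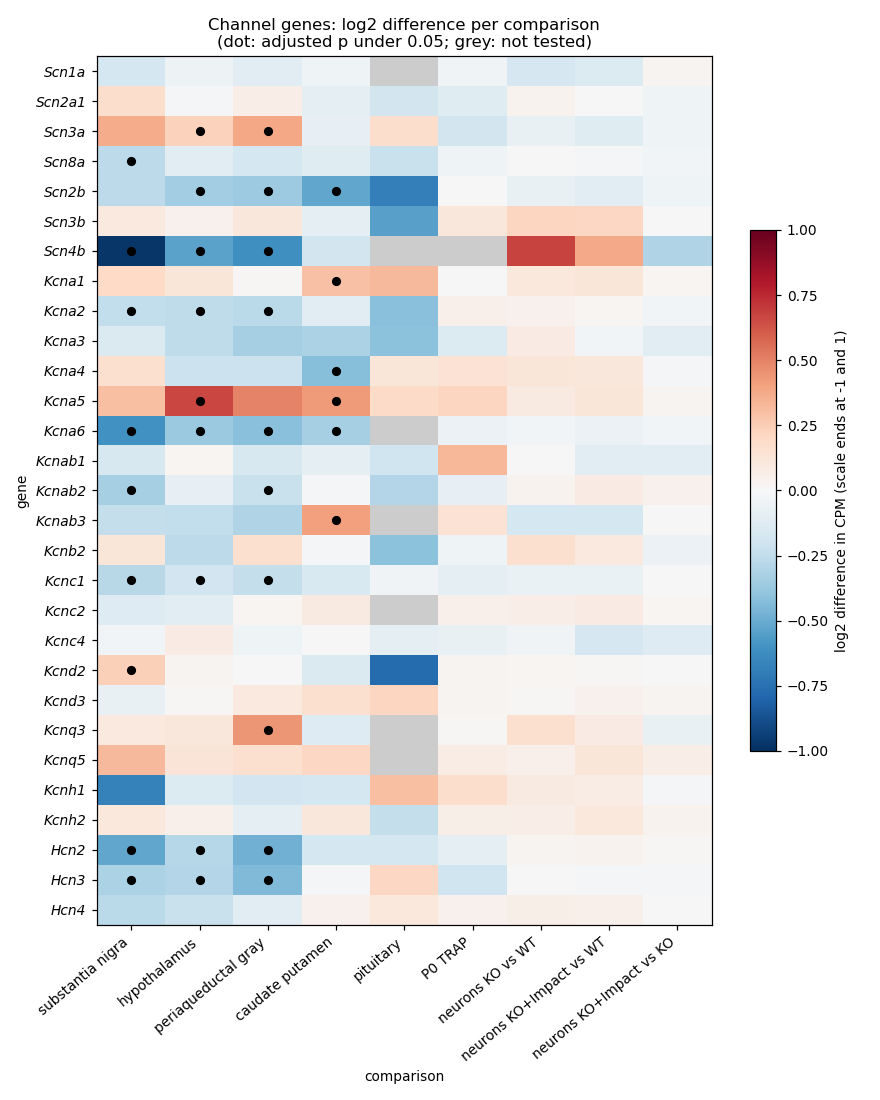
Log2 difference in CPM (colour; blue lower, red higher in the cKO or KO group, or in KO with Impact) of the 29 channel genes in 9 comparisons, with a dot where adjusted p was under 0.05 and grey where the gene was not tested. Dots, from the fits without a replicate block, occur in the 4 brain regions and in no other column, and the strong Scn4b colours of cultured neurons rest on levels under 1 CPM. With the block 2 genes passed in KO against WT and 2 in KO with Impact against WT, where 6.35% and 3.39% of all genes passed.

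Counting could mix genes that overlap. On GRCm38 16 of the 29 genes overlap a gene on the opposite strand, among them Kcna6, Scn2b, Kcnab2 (with Nphp4), Hcn3 (with Pklr) and Kcnh1 (with Hhat), and the strand setting of the counts is not given in the sources used here. For these genes reads of the partner cannot be told apart. Scn4b, Hcn2, Kcna1, Kcna2, Kcna4, Kcna5, Kcnc1 and Scn8a overlap none.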

How the data were processed

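Tables of 62 libraries list 23038 genes by Entrez number, with a tag number, an exon length and an RPKM value. The submitters' processing notes name mm10 and edgeR. The sources used here do not give the aligner, the annotation, the strand setting or how multiply mapped reads were handled. The 6 deposited pituitary tables hold whole counts. In the other 56, 4.56 to 18.8% of genes have fractional deposited values, taken as estimated counts and rounded. RPKM, as deposited, is the same tag number per length and depth, and served only to order genes within a group.

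Low genes were removed (edgeR filterByExpr; count 10, total 15), libraries were scaled by TMM, and edgeR 4.0.16 in R 4.3.3 gave quasi-likelihood tests with Benjamini-Hochberg adjustment over all genes and 0.05 as the threshold. Each tissue and TRAP were fitted alone, the 3 culture groups together, and the 4 regions together for the average and interaction. CPM is scaled within each fit, so levels from separate fits stand only side by side. The script was tested on simulated counts in which some genes were changed by a known fold. In the 4 brain regions 68.2 to 77.2% of 1.5-fold changes and 90.5 to 99.1% of 2-fold changes passed. In pituitary 8.51% and 52.6% did, so a gene without a call was not shown to be unchanged. Alternatives were size factors of DESeq2 type, DESeq2 1.42.0, no filter, a replicate block, no Rn45s and each library left out. Replicate numbers were taken to pair libraries where each pair's correlation exceeded 0.1, which held in cultures (12 pairs, 0.397 to 0.714) and pituitary (3 pairs, 0.269 to 0.313). The block entered only as an alternative, there as elsewhere. None of 102 same-group pairs was identical, and each differed by more than counting noise (lowest chi-square per degree of freedom 3.62).

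The text names every gene called in substantia nigra, up to 6 per other comparison by adjusted p with the rest in brief, up to 3 per direction in control regions, and up to 4 per list. Periaqueductal gray and hypothalamus calls past the sixth are also named. Sptbn4 and Map2 were not found under those symbols. Some called genes of these lists are not reported here. The members and lists were chosen with earlier results of these data known.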

Additional observations from a re-analysis of the deposited data

Results flagged for a closer look

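In 68 checks of a called gene in a group of 4 libraries, 3 had a library far from the other 3, and chance gives such a gap in about 1 of 20 groups. Scn4b in substantia nigra was at 29.4 CPM in cKO 1, below the 36.0 to 37.4 CPM of the other cKO libraries, and the call held without it. Kcna2 in hypothalamus was at 233.3 CPM in cHet 2, below the 262.0 to 266.6 CPM of the other controls, and the call held without it. Kcna5 in caudate putamen was at 31.03 CPM in cKO 2, above 24.2 to 25.0 CPM in the other cKO libraries, and without it the adjusted p of the edgeR test was 0.122.

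Kcnab3 differed between regions in its genotype effect (edgeR interaction, adjusted p = 0.0413). It was higher in cKO in caudate putamen (20.1 ± 3.8 to 26.8 ± 1.3 CPM) and at a lower mean in cKO in the other 3 regions, where it did not pass.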

How the results depend on the processing

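No estimate of the 29 genes that passed changed sign under any alternative. Of 34 calls in the 4 regions, 19 held under every alternative, and 14 gene and comparison pairs without a call passed under at least 1. The number of the 29 genes called ran, with each library left out, from 6 to 10 in substantia nigra, 2 to 8 in caudate putamen, 7 to 9 in hypothalamus, 7 to 11 in periaqueductal gray, 14 to 18 for the average and 0 to 2 for the interaction, and was 0 throughout in pituitary, TRAP and cultures. The interaction count was 0 without Rn45s. For KO against WT it was 1 with DESeq2. The replicate block gave 6 in substantia nigra (Kcna2, Hcn3 and Kcnd2 lost), 7 in caudate putamen, 9 in hypothalamus, 11 in periaqueductal gray, 0 in pituitary and TRAP, 16 for the average, 2 for the interaction (Kcnab3, and Scn4b at adjusted p 0.0398), and 2 for each of KO and KO with Impact against WT. Same-numbered libraries did not meet the rule for pairing, each correlation above 0.1, in the 4 regions (correlations -0.396 to 0.184 in substantia nigra, -0.067 to 0.421 in caudate putamen, -0.051 to 0.514 in periaqueductal gray, 0.011 to 0.103 in hypothalamus) or in TRAP (-0.377 to 0.309). Libraries correlated best with their own number in 6 of 16 comparisons in substantia nigra, 4 in caudate putamen, 12 in periaqueductal gray, 0 in hypothalamus and 8 of 24 in TRAP, and, across regions, in 184 of 448 with all brain libraries and 42 of 96 with controls, where correlations ran from -0.421 to 0.506 and -0.192 to 0.505. In the brain regions a random match among 4 libraries would be right 1 time in 4. The share was above this in substantia nigra and periaqueductal gray, across regions and in controls. It was equal to this in caudate putamen and below it in hypothalamus. Whether same-numbered libraries shared an animal was not tested. Control region counts were 22 to 29 under every alternative.

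Over all genes, the calls in substantia nigra were 1457, and 889 with the block or 705 at the lowest with 1 library left out. The lowest such counts were 826 in caudate putamen (1559 with all libraries), 1060 in hypothalamus (1823) and 764 in periaqueductal gray (1458). With the block the calls over all genes were 1853 in caudate putamen, 1751 in hypothalamus and 2176 in periaqueductal gray. They were 6513 for the average (6256 without the block) and 85 for the interaction (51 without it). KO against WT went from 107 to 320 with DESeq2, 942 with the block and 46 with 1 library left out, and KO with Impact against WT from 56 to 156, 503 and 22. KO with Impact against KO went from 1 to 8 with DESeq2 and 27 with the block, pituitary from 1 to 75 with no filter and 33 with the block, TRAP from 4 to 13 with DESeq2 and the interaction from 51 to 200. The causes were not tested. Pituitary had the lowest depth, 3 libraries per group and Rn45s shares of 15.4 to 40.8%, and their parts in its low count cannot be told apart.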
